A study of Mus musculus with 2 samples.

Results

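The cells described here are T cells of mouse bone marrow that carried transcripts of both or either of Mki67 and Top2a, genes of chromosome organisation that are transcribed in cycling cells. A cell was a member when it had at least 2 UMIs (unique molecular identifiers, each counting 1 captured RNA molecule) of Cd3d, Cd3e and Cd3g together, no UMI of Cd79a, and at least 4 UMIs of Mki67 (ENSMUSG00000031004) and Top2a (ENSMUSG00000020914) together. The members numbered 621 of 20322 kept cells of both libraries. They were 369 of 6648 T cells in the library labelled Irf4-/- and 252 of 11119 T cells in the library labelled WT. Paired values below are given in that order, the library labelled Irf4-/- first.

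The study sorted natural killer progenitors (NKP) from bone marrow and made 1 droplet 3' RNA library from wild-type C57BL/6 mice and 1 from Irf4-/- mice; IRF4 is a transcription factor of lymphocyte activation. The gate took cells that stained for CD122, the interleukin-2 and interleukin-15 receptor beta chain encoded by Il2rb. It left out cells with NK1.1, Ncr1, c-kit, Sca-1 or lineage markers on their surface. Neither the ages nor the number of mice, nor the strain background of the Irf4-/- mice or the deleted part of the gene, were given in the labels. Since each genotype had a single library, nothing measured the spread between mice and no test was made, and every interval below is a 95% interval that covers counting error only.

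A dividing cell licenses its replication origins in G1, copies its DNA and makes histones in S phase, and builds a spindle and segregates its chromosomes in mitosis. E2F factors drive many genes of the first steps, and the B-MYB and FOXM1 factors, with the MuvB core of the DREAM complex, drive many genes of the last. Memory T cells that carry CD122 are known to divide slowly in bone marrow under interleukin-15 and interleukin-7.

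The gate and the cells did not match in lineage, since most kept cells held CD3 transcripts. The library labelled Irf4-/- held 82599767 UMIs in 8147 barcodes and the library labelled WT 95031071 UMIs in 12732. The libraries shared 27 barcodes, 25 of them kept in both; 1 member of each library had a shared barcode and none was a member in both. Members held a median of 21364 and 16274 UMIs, against 9715 and 7202 in the other T cells. Their median share of mitochondrial UMIs was 3.32% and 2.99%, against 3.93% and 3.47%.

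Some members went against the T cell label. At least 10 UMIs of basophil, neutrophil, monocyte or erythroid genes (Prss34, Mcpt8, S100a8, S100a9, Elane, Mpo, Prtn3, Ctsg, Cpa3, Lyz2, Car1, Car2 and Klf1 together) were present in 5 of 369 and 4 of 252 members, 1.36% and 1.59%, against 1 of 6279 and 7 of 10867 other T cells. A member of the library labelled Irf4-/- held 673 UMIs of the basophil protease gene Prss34 and 543 of Mcpt8 beside 30 CD3 UMIs. Another held 401 UMIs of S100a8 and 319 of S100a9, calcium-binding proteins of neutrophils, beside 21 CD3 UMIs. In the library labelled WT a member held 599 UMIs of Prss34 beside 7 CD3 UMIs, and another 585 beside 23. A member of each library held haemoglobin RNA, 4691 and 7265 UMIs. In the library labelled Irf4-/- 1 of the 5 held 11 UMIs of Car2 and none of the other listed genes, beside 52 CD3 UMIs. The limit of 10 UMIs was the same for members and for the other T cells, which held fewer UMIs per cell. No doublet caller was used, and doublets were not removed. The share of members and the counts of genes with a mean of at least 50 CPM are given with and without these 9 members. Most other results include them.

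The CD3 label itself held for the members at the level of counts. The fewest CD3 UMIs in a member was 4 in each library and the median was 39 and 35. Some defining genes of other lineages were at or near 0 and others were not. Pax5, the B cell identity factor, had no UMI in any member. Ncr1, the natural killer receptor absent by the gate, was seen in 1 and 0 members, and Kit, which encodes c-kit, the stem cell factor receptor, in 8 and 2. Rag1 and Rag2, the recombinase genes of immature thymocytes, had no UMI in any member. Cd79b, a chain of the B cell receptor complex, was seen in 23.8% and 28.6% of members and in 12.2% and 10.8% of other T cells before any thinning, and Cd22, another B cell gene, in 8.94% and 6.75% against 3.85% and 1.22%. Eomes, a factor of natural killer cells and of memory CD8 T cells, was seen in 62.6% and 48.8% of members and in 43.0% and 35.9% of other T cells. The shares of Cd79b, Cd22 and Eomes were not thinned, and members held more UMIs per cell. These shares alone thus do not show higher levels in members.

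Ighm, the mu heavy chain gene of B cells, was present in members at 176 and 224 CPM (UMIs of a gene per 1000000 UMIs of the summed population), and in other T cells at 178 and 212 CPM. Igkc, the kappa light chain gene, had 18 UMIs in the members of each library. Eomes stood at 72.5 and 70.2 CPM in members, slightly below its 75.8 and 77.4 CPM in other T cells. Cd79b stood at 14.6 and 20.9 CPM against 13.9 and 16.2, and Cd22 at 5.22 and 4.26 against 4.46 and 1.77. The log2 ratio of Ighm in members over other T cells was -0.01 and 0.08, close to equal in each library. The 10 B cell markers summed to 200.2 and 262 CPM in members and to 202 and 238 CPM in other T cells. The 10 neutrophil and promyelocyte markers summed to 105 and 31.8 CPM in members against 4.35 and 7.02, and the 8 erythroid markers to 613 and 1685 CPM against 107 and 801; the members named above held most of this RNA. The part of these markers in the levels of other genes was not tested.

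The counts that defined the members were high in most of them. The median member held 45 and 40.5 UMIs of Mki67 and Top2a together, with quartiles of 10 and 74 in the library labelled Irf4-/- and of 17 and 62 in the library labelled WT. Both genes were seen in 322 of 369 and 233 of 252 members. Mki67 alone was seen in 17 and 14 and Top2a alone in 30 and 5. At least 20 UMIs were found in 240 members (65.0%) and 176 members (69.8%).

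The limit of 4 UMIs did not fall in an empty stretch of the distribution. Just outside it, 30 and 26 T cells held 3 UMIs, and just inside it 29 and 10 held 4. Stmn1, which encodes the microtubule-destabilising protein stathmin, stood at 437 and 455 CPM in the cells with 3 UMIs and at 567 and 686 CPM in those with 4. Cenpf, a kinetochore protein gene of G2 and mitosis, stood at 19.5 and 45.2 CPM with 3 UMIs and at 42.3 and 24.5 CPM with 4. In T cells without either rule gene Stmn1 was at 25.7 and 20.7 CPM and Cenpf at 1.05 and 0.709 CPM, so the cells on both sides of the limit lay above the T cells with none.

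**Figure D1:**
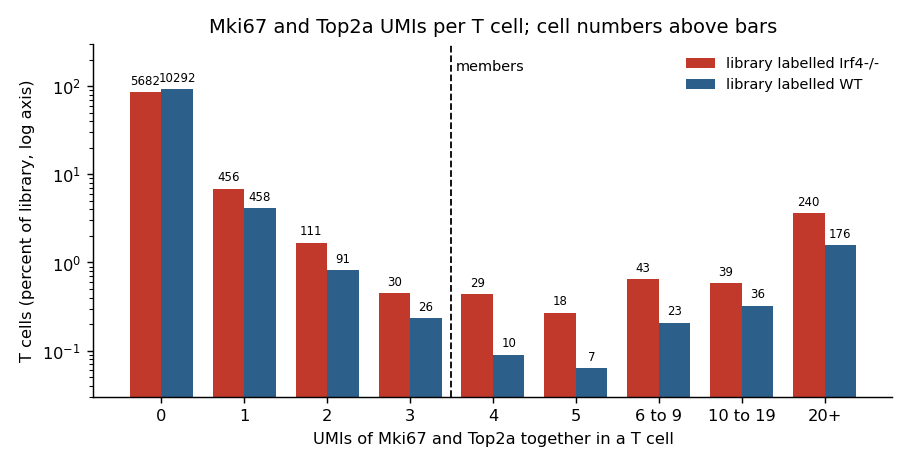
T cells of each library by the number of Mki67 and Top2a UMIs they held, as a percentage of the library's T cells on a log axis, with cell numbers above the bars and a dashed line at the limit of 4 UMIs. The bars fall from 5682 and 10292 cells without a UMI to 18 and 7 cells with 5 UMIs, inside the limit; the bars to their right pool several counts and reach 240 and 176 cells with 20 or more.

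Promoter sequences are shown for the 2 rule genes, for Cenpf and Ccnb1 (cyclin B1) as genes of mitosis, and for Mcm5, a subunit of the replicative helicase, as a gene of S phase, because the members' levels of these genes carry the description of stages below. Each runs 5' to 3' on the strand of the gene, from 250 bases before to 50 bases after the RefSeq start, in build GRCm38.p6. Capitals mark CCAAT (bound by NF-Y), TTTGAA and TTTAAA (the CHR element of MuvB complexes), and TTTCCCGC and TTTGGCGC (E2F forms), or their reverse complements; TTTAAA is its own reverse complement, and CCAAT reads ATTGG on the other strand. The windows are chr7:135716330-135716629 (minus strand) for Mki67, chr11:99024140-99024439 (minus) for Top2a, chr1:189688037-189688336 (minus) for Cenpf, chr13:100786437-100786736 (minus) for Ccnb1 and chr8:75109259-75109558 (plus) for Mcm5.
Mki67: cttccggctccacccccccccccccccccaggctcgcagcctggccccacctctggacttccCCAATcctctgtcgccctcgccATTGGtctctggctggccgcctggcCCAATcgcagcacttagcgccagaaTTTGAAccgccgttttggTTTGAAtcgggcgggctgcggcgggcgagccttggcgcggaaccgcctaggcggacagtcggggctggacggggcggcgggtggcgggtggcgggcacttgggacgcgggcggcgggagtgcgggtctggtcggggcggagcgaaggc
Top2a: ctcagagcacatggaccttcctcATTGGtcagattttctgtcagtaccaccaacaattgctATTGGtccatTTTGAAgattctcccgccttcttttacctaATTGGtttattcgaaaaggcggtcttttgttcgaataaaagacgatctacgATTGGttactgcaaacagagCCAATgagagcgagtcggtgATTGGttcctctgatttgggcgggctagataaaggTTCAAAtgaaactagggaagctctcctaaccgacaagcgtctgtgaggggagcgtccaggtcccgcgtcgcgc
Cenpf: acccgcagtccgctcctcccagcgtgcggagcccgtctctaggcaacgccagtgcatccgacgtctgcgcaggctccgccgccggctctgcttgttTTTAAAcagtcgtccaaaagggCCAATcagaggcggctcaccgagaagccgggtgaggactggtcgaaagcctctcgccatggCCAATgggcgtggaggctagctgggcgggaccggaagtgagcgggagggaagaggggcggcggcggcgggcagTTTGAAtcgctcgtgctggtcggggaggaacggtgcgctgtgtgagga
Ccnb1: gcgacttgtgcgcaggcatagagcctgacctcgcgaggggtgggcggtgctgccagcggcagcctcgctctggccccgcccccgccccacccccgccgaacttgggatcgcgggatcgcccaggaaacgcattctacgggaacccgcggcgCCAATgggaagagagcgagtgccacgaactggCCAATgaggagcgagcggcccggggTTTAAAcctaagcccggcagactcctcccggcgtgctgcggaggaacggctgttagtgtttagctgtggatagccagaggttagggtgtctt
Mcm5: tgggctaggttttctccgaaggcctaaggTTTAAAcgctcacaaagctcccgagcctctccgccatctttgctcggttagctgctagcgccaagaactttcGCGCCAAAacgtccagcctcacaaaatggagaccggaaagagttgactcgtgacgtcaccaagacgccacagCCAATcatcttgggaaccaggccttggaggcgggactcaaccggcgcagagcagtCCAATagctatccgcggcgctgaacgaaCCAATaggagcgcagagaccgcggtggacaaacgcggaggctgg

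The Mki67 window held 3 CCAAT and 2 TTTGAA matches, and the Top2a window 6 CCAAT and 2 TTTGAA. In Ccnb1 a TTTAAA began 42 bases before the start, with CCAAT at 99 and 67 bases before it. Mcm5 was the only window of these 5 with an E2F form, TTTGGCGC on the opposite strand. Its window also held a TTTAAA and several CCAAT, among them those at 77 and 22 bases before the start.

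The same letters were counted in every RefSeq promoter of that length. Of the 68 promoters matched to 62 of the 72 genes of the kinetochore, mitotic kinase and spindle lists, 67.6% held CCAAT on either strand, against 37.4% of all 32851 promoters. TTTGAA was in 61.8% of the mitotic promoters and 17.9% of all, and CCAAT together with TTTGAA or TTTAAA in 50% and 10.7%. An E2F form, TTTCCCGC or TTTGGCGC, was in 5.88% of the mitotic promoters and 1.56% of all. Of the 44 promoters matched to 35 of the 44 licensing and fork genes, 29.5% held an E2F form, 20.5% held TTTGAA and 56.8% held CCAAT. A match is a description of the sequence and not evidence of binding. None of the 24 listed histone genes was matched in the promoter table.

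Because the members were chosen by 2 cycle genes, their difference from the other T cells describes what the rule selected. Of 2446 genes with a mean of at least 50 CPM and at least 20 UMIs, 242 (9.89%) were at least 2-fold higher in members than in other T cells of both libraries, and 13 (0.531%) at least 2-fold lower. Without the 9 members named above the counts were 239 and 13. For the gene lists, all members of a list with at least 20 UMIs were used without a minimum CPM. By that rule 8.83% of 12218 genes were higher and 1.66% lower in both libraries. The median log2 ratio of those genes was 0.04 and 0.11. CPM are shares of summed UMIs, and members held more UMIs per cell than other T cells. A gene lower in CPM thus need not have fewer UMIs per cell, which was not compared.

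Histone genes were far higher in members than in other T cells. The 24 replication-dependent histone genes summed to 15821 and 16285 CPM in members and to 491 and 554 CPM in other T cells. All 23 that could be compared were at least 2-fold higher in both libraries, with median log2 ratios of 5.29 and 5.16. Hist1h1b, a linker histone gene, stood at 3006 and 3089 CPM in members and at 2.05 and 3.25 CPM in other T cells. Hist1h3b, a histone H3 gene that led the ranking, stood at 215 and 188 CPM against 0.140 and 0.0724. Hist1h2ap, a histone H2A gene, stood at 2397 and 1941 CPM against 5.27 and 7.68. Most such histone messages end in a stem-loop and lack the poly(A) tail that a 3' kit primes on, so their counts need not follow their abundance. The copies are also nearly identical in coding sequence, so the split of reads between them is uncertain.

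Genes of origin licensing and of the fork were higher by smaller ratios. All 20 licensing genes were at least 2-fold higher in both libraries, with medians of 2.35 and 2.48. Mcm5 stood at 127 and 107 CPM in members and at 20.7 and 14.2 in other T cells. Cdc6, which loads the helicase at origins, stood at 38.1 and 41.3 CPM against 1.37 and 0.567. Gmnn, whose product geminin blocks a second licensing, stood at 192 and 199 CPM against 20.2 and 17.4. All 24 fork genes were likewise higher, with medians of 2.37 and 2.64. Among them Pclaf, the PCNA clamp-associated factor, stood at 656 and 704 CPM against 1.96 and 1.38. Pcna itself, the sliding clamp, stood at 411 and 348 CPM against 71.0 and 55.4.

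Nucleotide supply was split. Of its 18 genes 10 were at least 2-fold higher in both libraries. Rrm2, the S phase subunit of ribonucleotide reductase, stood at 204 and 211 CPM in members and at 1.41 and 0.857 in other T cells, and Tk1 (thymidine kinase) at 99.1 and 102 against 1.41 and 0.881. Cad, which starts pyrimidine synthesis, was among the 8 that were not, at 24.3 and 22.0 CPM against 15.3 and 12.9.

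The lists of mitosis held the highest medians. All 32 spindle and kinesin genes were at least 2-fold higher in both libraries, with medians of 5.81 and 6.30, and so were all 17 genes of the chromosomal passenger complex and mitotic kinases, with medians of 6.84 and 7.11. Of 23 kinetochore genes 21 were higher. Hmmr, a spindle-assembly protein gene, stood at 223 and 257 CPM in members and at 0.280 and 0.133 in other T cells. Birc5, which encodes the passenger protein survivin, stood at 473 and 507 CPM against 1.09 and 1.0. Plk1 (polo-like kinase 1) stood at 86.2 and 102 CPM against 0.342 and 0.314. Cenpf stood at 462 and 522 CPM against 1.49 and 1.03. Stmn1 stood at 1836 and 1877 CPM against 38.3 and 28.1.

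Mitotic exit genes were mixed, with 8 of 15 at least 2-fold higher in both libraries. Ube2c, the ubiquitin-conjugating enzyme of the anaphase-promoting complex, stood at 445 and 536 CPM against 1.49 and 1.10, and its activator gene Cdc20 at 114 and 148 against 3.08 and 2.38. The core subunit gene Cdc16 stood at 23.0 and 19.3 CPM against 16.8 and 15.9.

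Cyclins of S phase and mitosis were high in members and D cyclins were not. Of the 20 cyclin and CDK genes 16 were at least 2-fold higher in members of both libraries and 1 lower. Ccna2, the S and G2 cyclin A2, stood at 162 and 171 CPM against 0.155 and 0.169 in other T cells. Ccnb1 stood at 81.5 and 89.2 CPM against 0.451 and 0.579, and Cdk1, its kinase, at 197 and 215 against 1.52 and 0.869. Ccne1, the G1/S cyclin E1, stood at 51.1 and 53.8 CPM against 7.68 and 7.88. The one that was lower was Ccnd2, the growth factor-responsive cyclin D2, at 187 and 185 CPM against 419 and 421. Ccnd3, its paralogue, stood at 178 and 160 CPM against 162 and 162.

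Among cycle inhibitors and quiescence genes 5 of 19 were higher by the same measure and 1 was lower. Cdkn2c, a CDK4/6 inhibitor (p18), stood at 64.1 and 50.7 CPM in members and at 9.76 and 6.98 in other T cells, and Cdkn2d (p19) at 162 and 182 against 71.8 and 77.1. Cdkn1b, the p27 inhibitor of quiescent cells, stood at 108 and 148 CPM against 127 and 172. Pik3ip1, an inhibitor of PI3 kinase found in resting T cells, was the lower one, at 20.3 and 29.8 CPM against 51.3 and 87.8. Btg1, an antiproliferative gene, stood at 209 and 207 CPM against 474 and 384, a log2 ratio of -1.18 and -0.89.

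Transcription factors of the cycle were at low counts. Of 15 E2F, B-MYB, FOXM1 and DREAM genes 10 were at least 2-fold higher in both libraries. E2f8, an atypical repressor E2F, stood at 43.2 and 53.4 CPM against 0.0777 and 0.0483, and Foxm1 at 36.2 and 39.9 against 0.466 and 0.507. Lin54, the MuvB subunit that contacts the CHR element, stood at 21.1 and 22.4 CPM against 7.07 and 8.04.

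Most chromatin and repair genes were higher in members. Of 22 chromatin genes 18 were at least 2-fold higher in both libraries, as were 18 of 20 repair genes. Hmgb2, a DNA-bending protein, stood at 3749 and 3763 CPM in members and at 300 and 249 in other T cells. Ezh2, the Polycomb methyltransferase, stood at 240 and 281 CPM against 18.6 and 19.8.

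Genes of growth differed less. None of 22 ribosome biogenesis genes and none of 30 nuclear oxidative phosphorylation genes was at least 2-fold higher in both libraries; the medians of the latter list were 0.44 and 0.55. In glycolysis 3 of 18 were, among them Gapdh at 1223 and 1272 CPM against 580 and 533, and Tpi1 at 132 and 116 against 56.8 and 48.6. Myc, the growth factor-induced regulator, was lower in CPM in members, at 46.6 and 28.9 against 71.1 and 52.0. Its log2 ratio was -0.61 and -0.85.

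The genes that were lower in CPM in members included survival factors, cytokine receptors and chemokines. Ccl5, a chemokine stored as message by memory T cells, stood at 1686 and 1463 CPM in members and at 5258 and 4333 in other T cells. Bcl2, the survival factor kept up by interleukin-7 and interleukin-15, stood at 239 and 214 CPM against 607 and 578. Il7r, the interleukin-7 receptor alpha chain, stood at 126 and 168 CPM against 294 and 521. Hopx, a cofactor of effector differentiation, stood at 85.6 and 46.0 CPM against 194 and 121. Junb, an AP-1 subunit, stood at 92.0 and 75.6 CPM against 195 and 156. In the list of common gamma chain receptors and STAT5 feedback 4 of 19 were at least 2-fold lower in both libraries and 0 higher.

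Effector genes did not all go that way. Of 39 effector and memory genes 6 were at least 2-fold higher in both libraries and 4 lower. Lgals1, a galectin of activated T cells, stood at 573 and 788 CPM in members against 187 and 202. Gzma (granzyme A) stood at 10.2 and 25.6 CPM against 3.45 and 7.07, and 49 of its 114 UMIs in members of the library labelled WT were in 1 cell.

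Members differed widely among themselves in histone RNA. The 24 histone genes had a median of 107 and 132 UMIs per 10000 UMIs of a member, with quartiles of 9.22 and 267 in the library labelled Irf4-/- and of 12.8 and 303 in the library labelled WT. Kinetochore genes had medians of 23.3 and 27.3 per 10000 UMIs and licensing genes 16.3 and 16.8. Members were laid out in 3 ranges by histone UMIs (limit of 100 per 10000) and by mitotic UMIs, the sum of the kinetochore, passenger and kinase, and mitotic exit lists (limit of 50). These limits were set after the values were seen, and the ranges are not cell types. Within 50 to 200 histone UMIs per 10000 lay 61 and 39 members, and of those under the histone limit 25 and 3 lay within 40 to 60 mitotic UMIs.

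Members with at least 100 histone UMIs per 10000 were 188 (50.9%, 45.7 to 56.2) and 135 (53.6%, 47.2 to 59.9). In these cells Rrm2 stood at 317 and 327 CPM and Ccne1 at 69.8 and 71.9 CPM. Ccnb1 was present there too, at 76.9 and 72.7 CPM.

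Members under that histone limit with at least 50 mitotic UMIs per 10000 were 47 (12.7%, 9.51 to 16.6) and 49 (19.4%, 14.7 to 24.9). With a mitotic limit of 40 in place of 50 they were 65 (17.6%) and 50 (19.8%), and with 60 they were 40 (10.8%) and 47 (18.7%). The size of the difference between the libraries thus depended on the limit. In the range with the limit of 50, Ccnb1 stood at 268 and 244 CPM, Cdc20 at 335 and 379 CPM and Cenpf at 1289 and 1236 CPM. Cdc20 and Cenpf belong to the lists summed for the mitotic limit, so their levels by range describe the cut. The S phase genes were low in the same cells: Rrm2 stood at 42.3 and 59.5 CPM, Pcna at 80.7 and 61.8 CPM and Ccne1 at 0.961 and 10.3 CPM.

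Members below both limits were 134 (36.3%, 31.4 to 41.5) and 68 (27%, 21.6 to 32.9). Their median count of Mki67 and Top2a was 7 and 9.5 UMIs, against 67 and 54 in the histone-high range. Mcm6, another helicase subunit gene, stood at 263 and 261 CPM in them and at 169 and 178 CPM in the histone-high range. Mcm5 differed less, at 159 and 128 CPM against 129 and 118. Pcna, at 415 and 401 CPM against 485 and 426, and Rrm2, at 65.4 and 78.2 against 317 and 327, went the other way. Ccnb1 stood at 11 and 6.15 CPM and Cdc20 at 26.0 and 14.9 CPM. Ccnd2 stood at 264 and 284 CPM, against 142 and 145 CPM in the histone-high range. The intervals of the share of this range overlapped between the libraries, and its median depth was 18083 and 16074.5 UMIs.

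**Figure D2:**
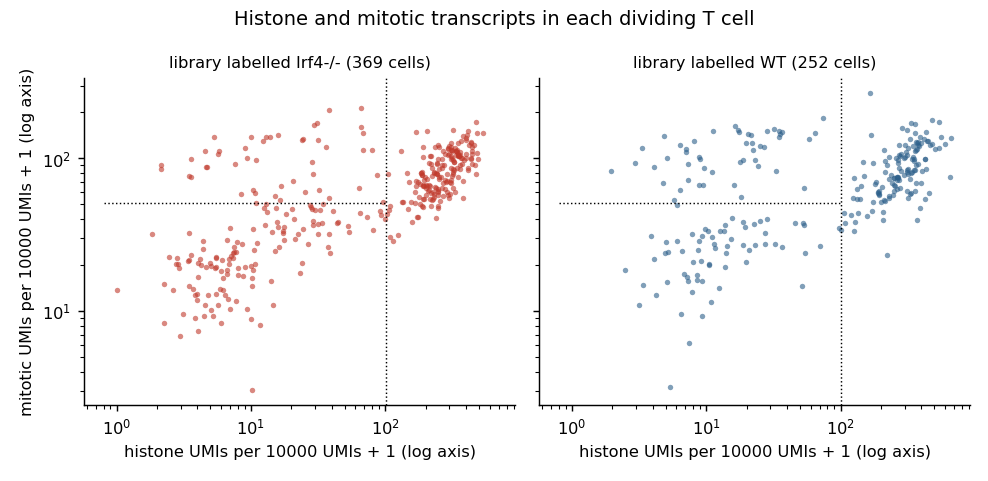
Histone UMIs (horizontal) against mitotic UMIs (vertical) per 10000 UMIs of each member, plus 1, on log axes, with 369 cells of the library labelled Irf4-/- at left and 252 of the library labelled WT at right. Dotted lines mark the limits of 100 and 50; 47 and 49 cells lie at upper left, low in histone and high in mitotic RNA.

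The members are set here beside T cells that held replication genes with rule genes under the limit. The limit on the rule genes made the 2 groups, so lower cycle genes in the second do not show a gap between them. Those cells had at least 4 UMIs of Mcm3, Mcm5, Mcm6 and Hells together and under 4 of Mki67 and Top2a, and numbered 577 and 386. Top2a was seen in 26.0% and 23.8% of them. Mcm6 and Mcm3 are part of that rule, and their levels there, 208 and 206 CPM for Mcm6 and 182 and 191 CPM for Mcm3, describe it. Licensing genes as a whole summed to 1182 and 1155 CPM there and to 1698 and 1701 CPM in members. Histone genes summed to 416 and 494 CPM, below the 491 and 554 CPM of all other T cells. Ccna2 stood at 0.462 and 0 CPM and Cenpf at 2.42 and 1.02 CPM, and Ccnd2 at 405 and 423 CPM, near its level in other T cells. Ribosome biogenesis genes summed to 5338 and 5731 CPM there and to 4466 and 4530 CPM in members. No other list is compared between these groups, since both were cut from the same counts.

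The members were mostly alpha-beta T cells. To set shares of cells side by side, each cell was thinned to 5000 UMIs, which left out 0 and 1 members and 187 and 1473 other T cells. Trac, the alpha chain constant gene, was seen in 84.3% and 82.9% of members and in 81.0% and 83.1% of other T cells. Trdc, the delta chain gene, was seen in 11.1% and 8.37% of members and in 13.1% and 11% of other T cells. Cells with Cd79a and no CD3 UMI, thinned in the same way, gave 2.50% and 0.877% for Trac. Of 988 and 842 such cells 280 and 114 held 5000 UMIs. They were chosen to lack CD3 UMIs, so their share can lie below what free RNA gives, which was not tested.

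Cd8b1, the beta chain gene of conventional CD8 T cells, was seen in fewer cells of the library labelled Irf4-/-, at 39.6% and 59.4% of members and 35.1% and 60.6% of other T cells. Before thinning its shares in members were 57.2% and 71.4%. Cd8a, the alpha chain gene, was seen in 44.7% (39.6 to 49.9) and 51.8% (45.4 to 58.1) of members, intervals that overlap, and in 39.0% and 48.6% of other T cells. Before thinning its shares in members were 76.4% and 74.6%, in the opposite order. Cd4 had no UMI in 369 members, which allows up to 0.813% of members with a UMI (3 counts of 369), and 16 UMIs in 10 of 252. Foxp3, the regulatory T cell factor, was seen in 2 members of each library.

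Receptor variable segments were diverse. A single Trbv gene was seen in 190 and 126 members, which held 22 and 19 different segments. The leading segment was Trbv13-2 in 20 of 190 (10.5%, 6.55 to 15.8) and Trbv3 in 17 of 126 (13.5%). Among other T cells of the same libraries with 1 Trbv gene these were at 8.30% and 8.77%. No segment held more than these shares of the members, and the cells were not tested for clones by full receptor sequences.

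After thinning, Il2rb, Ly6c2 and Il7r, genes of memory and cytokine response, were seen in smaller shares of members than of other T cells. Il2rb, which encodes the CD122 used in the gate, was seen in 68.3% and 58.6% of members and in 81.0% and 70.3% of other T cells after thinning. Ly6c2, a surface marker of memory CD8 T cells, was seen in 86.2% and 70.5%, and in 94.6% and 93.3% of other T cells. Il7r was seen in 38.8% and 41.4% of members and in 55.8% and 75.2% of other T cells, the largest such gap in the library labelled WT among the genes plotted by share. Before thinning, in the library labelled Irf4-/-, Il2rb was seen in 93.0% of members and 93.5% of other T cells. Ly6c2 was seen there in 92.1% and 95.2%, and Il7r in 71.5% and 68.6%, the opposite order for Il7r.

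**Figure D3:**
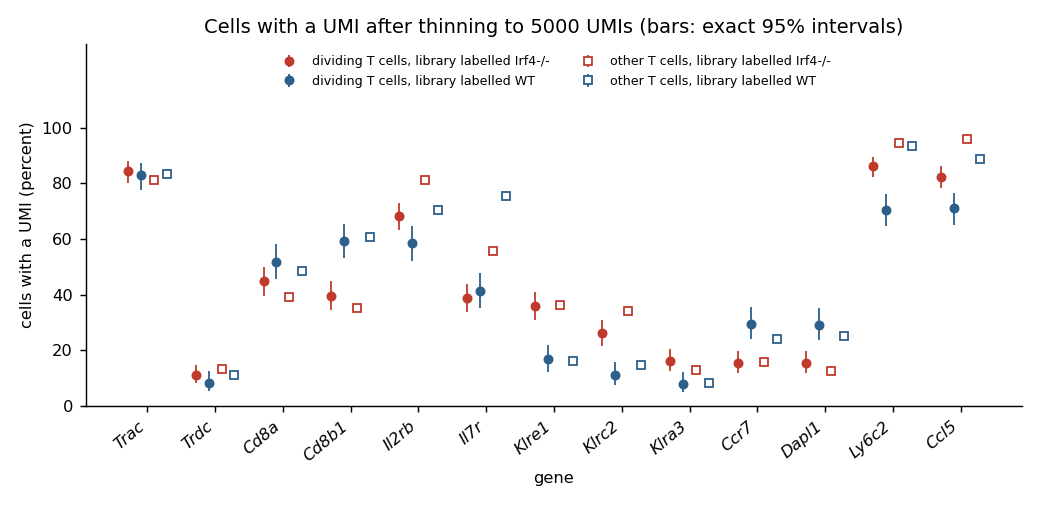
Percentage of cells with at least 1 UMI of each gene after thinning to 5000 UMIs, for members and other T cells of each library, with exact 95% intervals. Trac lies between 81.0% and 84.3% in all 4 groups, Klre1 at 35.8% and 36.2% in the groups labelled Irf4-/- and at 16.7% and 16% in those labelled WT, and Il7r is lower in members of both libraries.

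The study set the library labelled Irf4-/- beside the library labelled WT. Irf4 (ENSMUSG00000021356) came first as a check of the labels. Members held 26 and 10 Irf4 UMIs, 3.23 and 2.24 CPM, a log2 ratio of 0.53 (-0.57 to 1.74), so Irf4 was no lower under the Irf4-/- label. In other T cells the log2 ratio was 1.33. Counts from transcript ends check nothing where the allele lacks another part of the gene, and these counts do not test the genotype.

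Dividing T cells took a larger share of T cells in the library labelled Irf4-/-. The share was 5.55% (5.01 to 6.13) against 2.27% (2.0 to 2.56), a log2 ratio of 1.29 (1.06 to 1.53). Of all kept cells it was 4.64% and 2.04%. After each cell was thinned to 5000 UMIs the same rule gave 4.09% and 2.17%, and the log2 ratio was 0.92 in the same direction. Without the 9 members named above the shares were 5.48% and 2.23%. The T cells with replication genes and under 4 UMIs of the rule genes were 8.68% and 3.47%, and 3.7% and 1.56% with their rule applied to the thinned counts.

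The larger share was seen in each of 11 sets of T cells, sets that overlap and were chosen after seeing the data. The sets were split by a UMI of a lineage gene after thinning, but members were called on counts before thinning. These shares are thus not matched for depth between the libraries. Called this way, members were 5.71% and 2.60% of the T cells deep enough to thin. With the rule applied to thinned counts they were 4.09% and 2.17%. The thinned rule was not applied within the sets. Among cells with Cd8a or Cd8b1 the members were 6.5% and 2.59%, a log2 ratio of 1.33. Among cells without either they were 4.82% and 2.63%, a log2 ratio of 0.87. With Klre1, a lectin-like receptor gene, they were 5.65% and 2.71%, and without it 5.75% and 2.58%. Cells with Trdc and no Trac gave 4.07% and 1.64%, from 22 and 10 members. The ratio was smallest in cells without Il7r, 7.74% and 5.94%, a log2 ratio of 0.38 (0.08 to 0.69). Cells with Il7r gave 4.04% and 1.45%, a log2 ratio of 1.48 (1.10 to 1.86).

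Within members few genes differed by 2-fold between the libraries. Of 2621 genes with a mean of at least 50 CPM, 3 (0.114%) were at least 2-fold higher in the library labelled Irf4-/- and 6 (0.229%) at least 2-fold lower. The higher ones were Klre1, Klra3 and the gamma chain segment gene Trgv2. The lower ones were Myb, the haemoglobin genes Hba-a1, Hba-a2 and Hbb-bs, and the basophil protease genes Prss34 and Mcpt8. Without the 9 members named above the same 3 were higher and Myb alone was lower. For the gene lists, without a minimum CPM, 1.39% of 10349 genes were higher and 1.84% lower.

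The 6 cell cycle lists named next lay close to equality. The median log2 ratio in members was -0.09 for histones (8 of 24 above 0), -0.03 for licensing (9 of 20), -0.05 for the fork (9 of 24), -0.05 for kinetochores (10 of 23), -0.14 for the passenger complex and kinases (4 of 17) and -0.08 for the spindle (2 of 32). The median of the 10349 genes was -0.05. No gene of these 6 lists differed by 2-fold. The cyclin and CDK list had a median of -0.08 (7 of 20 above 0), with 1 gene at least 2-fold lower. The list of CDK inhibitors and quiescence genes had -0.26 (6 of 19), with 1 at least 2-fold higher. Mki67 stood at 1009 and 1180 CPM and Top2a at 1160 and 1197 CPM, but both are genes of the rule. Cdc20 had a log2 ratio of -0.38 (-0.52 to -0.23). The share of mitotic-range members was 12.7% against 19.4% with the limit of 50, 17.6% against 19.8% with 40 and 10.8% against 18.7% with 60. The part of that share in the ratio was not tested.

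**Figure D4:**
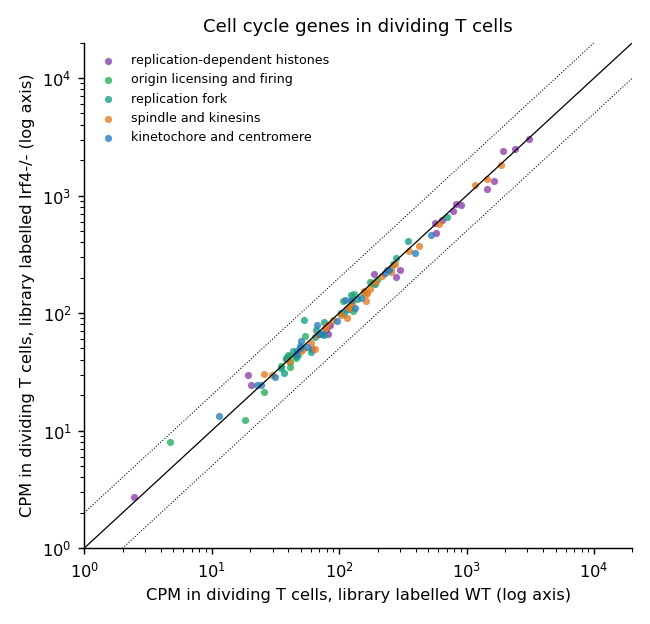
CPM of each gene of 5 cell cycle lists in members of the library labelled WT (horizontal) and of the library labelled Irf4-/- (vertical), on log axes; the solid line marks equal levels and the dotted lines a 2-fold difference. The points lie near the line of equality, and no gene of these lists passes the dotted lines.

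Among the gene lists, with the marker sets of cell types left aside, receptors of natural killer cells had the highest median. Of 21 such genes with at least 20 UMIs in members 17 lay above 0 and 8 were at least 2-fold higher in the library labelled Irf4-/-, with a median log2 ratio of 0.89. The same list had a median of 0.87 in other T cells. Klre1 (ENSMUSG00000050241), a lectin-like receptor of natural killer cells, stood at 158 and 59.0 CPM in members, a log2 ratio of 1.42 (1.23 to 1.61), and at 145 and 52.2 CPM in other T cells, 1.47. Klrc1, which encodes the inhibitory NKG2A, stood at 41.3 and 13.9 CPM, a ratio of 1.57, and Klrc2 (NKG2C) at 67.7 and 28.3 CPM, a ratio of 1.26. Klrk1, which encodes the activating receptor NKG2D, stood at 98.6 and 53.1 CPM, a ratio of 0.89.

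Klra3, a Ly49 receptor gene, stood at 94.0 and 35.7 CPM in members, a log2 ratio of 1.40 (1.15 to 1.65), and had a ratio of 0.73 in other T cells. After thinning it was seen in 16.3% and 7.97% of members and in 12.8% and 8.37% of other T cells. Ly49 genes are close paralogues, so the split of reads between them is uncertain.

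The ratios of these receptors were also taken apart by CD8 genes. In the 298 and 200 members with a Cd8a or Cd8b1 UMI the log2 ratio was 1.66 for Klre1, 1.61 for Klra3 and 1.32 for Klrk1, and the median of the list was 0.68. In the 71 and 52 members without one it was 0.44 for Klre1, -0.021 for Klra3 and -0.097 for Klrk1, and the median of the list was 0.27. Pim2, described next, had 1.92 and 2.08 in the same sets, and Myb -1.21 and -1.78. Klrc1 was at least 2-fold higher in both sets, at 1.82 and 1.07. Of the receptor genes with at least 20 UMIs 9 of 21 were at least 2-fold higher in the members with a CD8 UMI and 5 of 17 in those without. The ratios of Klre1, Klra3, Klrk1 and Klrc1 were thus higher where CD8 was seen, as was that of Klrc2, at 1.55 and 0.46. Other receptors went the other way: Klrb1c at 0.03 and 2.74, Klrb1a at 0.92 and 1.72, and Klrb1f at 1.59 and 3.35. So did Klra1, at 0.35 and 0.75, and Cd226, at -0.14 and 0.23. Without CD8, Klrb1c rested on 25 and 2 UMIs and Klrb1f on 19 and 1. The numbers of cells were unequal, and the difference between the sets was not tested.

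Klrb1c, which encodes the NK1.1 excluded by the gate, was seen in 2.17% and 1.59% of members after thinning. Other genes with high ratios in members were Xcl1, a chemokine for dendritic cells, at 167 and 88.6 CPM (0.91), Hopx (0.90) and Ly6c2, at 1542 and 962 CPM (0.68). Rpa3, a subunit of the single-strand DNA binding protein of the fork, had a ratio of 0.71, and 0.79 in other T cells. Efhd2, a calcium-binding protein gene, had a ratio of 0.69, Ost4, of the oligosaccharyltransferase, 0.63, Samd3 0.60 and Ipo5, an importin, 0.58.

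Pim2, a survival kinase gene induced by STAT5, had a larger ratio at a lower level. It held 407 UMIs in 185 of 369 members (50.1%) and 58 UMIs in 48 of 252 (19%), 50.6 and 13.0 CPM. The log2 ratio was 1.96 (1.56 to 2.38) in members and 1.31 in other T cells. Its mean lay under the minimum of 50 CPM, so it is not among the 3 genes counted above. Socs1, a feedback inhibitor of cytokine signals, had a ratio of 0.73 (0.41 to 1.05), and Cish, a STAT5 target, had 36 and 20 UMIs and a ratio of 0.00 (-0.83 to 0.86). Il2rb stood at 265 and 195 CPM, a ratio of 0.44. Of the 18 genes of common gamma chain receptors and STAT5 feedback 13 lay above 0, with a median of 0.27, and Pim2 was the one at least 2-fold higher.

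Genes of naive T cells lay on the other side. Of 17 naive and homing genes 1 was above 0 in members and 16 below, with a median log2 ratio of -0.40, and the median in other T cells was -0.38. Ccr7, the lymph node homing receptor, stood at 37.1 and 69.5 CPM (-0.91). Dapl1 stood at 122 and 217 CPM (-0.84), and Lef1, a T cell identity factor, at 137 and 175 (-0.35).

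Cd8b1 stood at 255 and 464 CPM in members, a log2 ratio of -0.86 (-0.95 to -0.77), beside -1.08 in other T cells. Myb, a transcription factor of progenitors and of stem-like T cells, stood at 29.6 and 72.7 CPM, a log2 ratio of -1.30 (-1.54 to -1.05), and at 31.5 and 51.9 CPM in other T cells, a ratio of -0.72. It was seen in 116 of 369 and 101 of 252 members, so the difference did not rest on 1 cell. Its mean of 51.1 CPM lay just over the minimum of 50, and fell to 43.7 CPM as the mean of each cell's CPM and to 48.0 CPM without the members of highest depth, where its ratios were -1.15 and -1.39. Slamf6 (-0.77), a receptor of stem-like T cells, Itga4 (-0.76), the alpha-4 integrin, Ypel3 (-0.68), Slfn1 (-0.65), a Schlafen gene, Vgll4 (-0.57), a cofactor of TEAD factors, and Arid4a (-0.57), a partner of the retinoblastoma protein, followed.

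**Figure D5:**
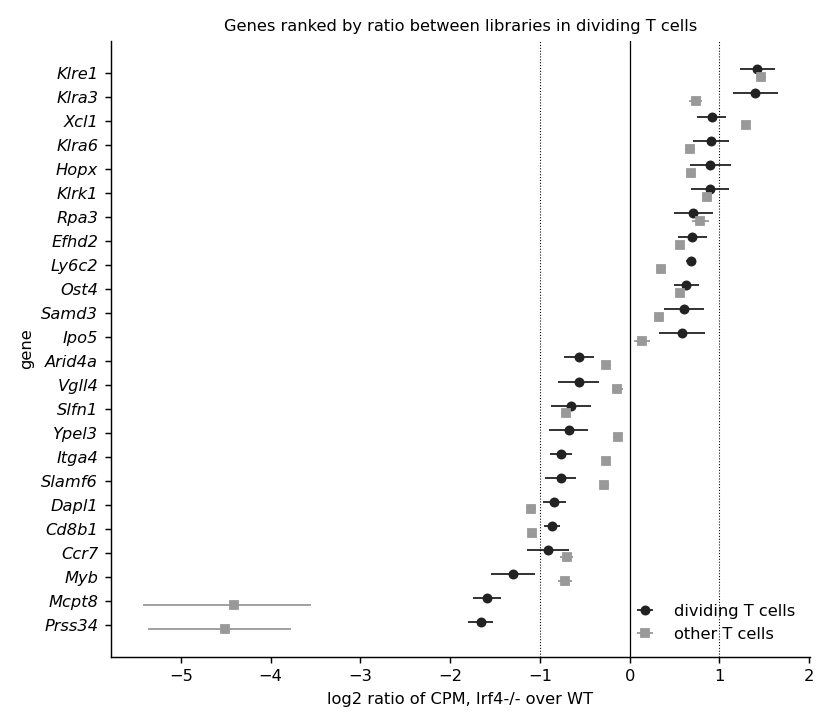
The 12 highest and 12 lowest genes by log2 ratio between the libraries (Irf4-/- over WT, CPM) in members, with the same ratio in other T cells and exact 95% intervals; dotted lines mark 2-fold. Klre1 lies at 1.42 and 1.47, and Prss34 and Mcpt8, at -1.66 and -1.59 in members, are genes of the basophil RNA held mostly by 1 and 2 members.

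Ifit3, an interferon-induced gene, had no UMI in the 369 members of the library labelled Irf4-/-, which allows up to 0.813% of members with a UMI, and 36 UMIs in 22 of 252 members of the library labelled WT. In other T cells it stood at 0.249 and 30.4 CPM. The interferon list as a whole had a median log2 ratio of 0.17 in members, with 19 of 27 genes above 0.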

How the data were processed

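The deposited files held UMI counts, whole numbers for each gene in each barcode. Cell Ranger 6.1.1 made them, per the file headers. The submitters' processing notes name the mm10 build, and no annotation release is named in the sources used here. The labels' protocols speak of nuclei in the kit text and of cells in the sort. Barcodes with at least 500 genes, at least 1000 UMIs and under 10% mitochondrial UMIs were kept, 7955 of 8147 and 12367 of 12732. Counts were summed over members, over the other T cells and over replicating T cells of each library, and scaled to CPM with Python 3.11.15, numpy 2.4.6, scipy 1.17.1 and pandas 2.3.3. Shares of cells have exact Clopper-Pearson intervals, CPM exact Poisson intervals and ratios of CPM exact conditional binomial intervals, all at 95%. A count of 0 was replaced by a floor of 3 counts in ratios, and the share of cells that a count of 0 allows is 3 counts of the total. Scripts were tested on simulated data.

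The members, gene lists and comparisons were chosen with earlier results of these data known, so none of them is independent support for a pattern. Named genes were those of the rule, the gate and Irf4, the 15 highest and 10 lowest of members over other T cells, the 12 highest and 12 lowest between the libraries, all with a mean of at least 50 CPM and without predicted, mitochondrial, ribosomal, receptor segment, immunoglobulin and haemoglobin genes, and list members with the largest ratios or a named role. Where a gene held by few members is given, it was chosen after its values were seen. Some genes counted in the lists are not reported here by name. Alternatives changed the limit of the rule, depth, filters, scaling and the members used.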

Additional observations from a re-analysis of the deposited data

Results flagged for a closer look

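Some genes lay on opposite sides of equality in the 2 libraries or in the 2 groups of T cells; none of these differences between groups was tested. Cd74, the invariant chain of MHC class II, had a log2 ratio of members over other T cells of -1.03 in the library labelled Irf4-/- and 1.44 in the library labelled WT, where 20 of its 34 UMIs were in 1 member. Klri2, a lectin-like receptor gene, had ratios of -0.70 and 1.01 from 20 and 15 UMIs. Maf, a factor of effector and regulatory T cells, had ratios of -1.52 and 0.81 from 4 and 60 UMIs, 16 of the latter in 1 member. Nr4a1, an early gene of receptor signals, had ratios of 1.25 and -2.43 from 55 and 2 UMIs, and 26 of the 55 were in 1 member.

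Cdkn2a, which encodes cell cycle inhibitors, had 19 UMIs in 18 members of the library labelled Irf4-/- and 3 UMIs in 3 members of the library labelled WT, a log2 ratio of 1.81. In other T cells it had 0 and 17 UMIs, a ratio of -2.14 with the count of 0 at the floor.

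S100a8 had log2 ratios of members over other T cells of 5.39 and -3.61, and of the library labelled Irf4-/- over WT of 7.83 in members and -1.18 in other T cells. S100a9 had ratios between the libraries of 4.49 and -0.82. In members of the library labelled Irf4-/-, 401 of 409 S100a8 UMIs and 319 of 324 S100a9 UMIs were in 1 cell.

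Outside the T cell rule, 154 and 93 kept cells held at least 4 UMIs of Mki67 and Top2a. Of these 127 and 76 held Cd79a, and 30 and 28 held both Cd79a and at least 2 CD3 UMIs.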

How the results depend on the processing

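The share of T cells that were members in the library labelled Irf4-/- was 4.84% with a limit of 6 UMIs and 4.09% with cells thinned to 5000 UMIs, where the log2 ratio between the libraries was 0.92; under the other alternatives it lay within the interval of the reported share. Genes at least 2-fold higher and lower in that library numbered 144 and 190 without a minimum CPM, and 84 and 67 without members that held a B cell, neutrophil or erythroid UMI, which left 16 and 17 members. In members without CD8 UMIs 5 were higher, and without the 9 members of non-lymphoid RNA, chosen after seeing the data, 1 was lower. In the 16 and 17 members 8 genes that were ranked or named between the libraries changed sign: Klre1 to -0.17, Xcl1 to -0.41, Samd3 to -0.12, Ipo5 to -1.10, Dapl1 to 2.14, Slamf6 to 0.52, Arid4a to 0.07 and Irf4 to -1.94. In members without CD8 UMIs 3 did, Klra3 to -0.021, Klrk1 to -0.097 and Irf4 to -0.90, and the cause was not tested. In the 16 and 17 members Klre1 rested on 8 and 7 UMIs. Irf4 had very few UMIs in either subset, where a count of 0 enters at the floor of 3. Its changes of sign do not show lower Irf4 under the Irf4-/- label. Of the values for single genes, lists and cell shares within members, 489 stayed within their interval, 83 moved outside it, and 2 that had been at least 2-fold, Klre1 and Klra3, changed sign. Of the main shares and counts of genes 45 stayed and 9 moved. Myb passed out of the count of lower genes in 2 settings through its mean CPM, with its ratio still past 2-fold, and stood at -0.55 in the 16 and 17 members. The mitotic limit of 40 was chosen after seeing the data. Counts of genes 2-fold higher in members than in other T cells ranged from 239 to 256, and lower from 11 to 14. No replicate could be left out, since each genotype had 1 library. No paired analysis was possible because each genotype had 1 library. Depth limits genes under about 20 UMIs in a library, such as Irf4 in members of the library labelled WT.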

Other observations

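A few members of the library labelled WT held checkpoint and helper genes that members of the library labelled Irf4-/- nearly lacked. Gzmk (granzyme K) had 49 UMIs in 10 of 252 members and 0 UMIs in 369, beside 640 and 1 UMIs in other T cells. Cd4, the helper T cell coreceptor, had 16 UMIs in 10 members and 0. Ctla4, an inhibitory receptor gene, had 28 UMIs in 14 members and 6 UMIs in 4. At least 1 of Gzmk, Maf, Ctla4 and Cd4 was seen in 27 members labelled WT, of which 13 held at least 2 of them, and in 8 members labelled Irf4-/-, of which 0 did. These genes were picked after their values were seen.

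Ccr9, a gut and thymus homing receptor gene, was seen in 37 of 252 members (14.7%) and 154 other T cells (1.42%) of the library labelled WT. In the library labelled Irf4-/- it was seen in 17 of 369 members (4.61%) and 67 other T cells (1.07%). Csf2, which encodes GM-CSF, was seen in 19 members labelled Irf4-/- and 1 member labelled WT, and in 4.35% and 0.479% of other T cells. Members held more UMIs per cell than other T cells, and these shares were not thinned.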
